A study of Mus musculus with 2 samples.

Results

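Transforming growth factor beta (TGF-beta) signalling was followed through 9 genes, out of 32286 measured features, in single cells of mouse lung. These were the ligands Tgfb1, Tgfb2 and Tgfb3, the signalling receptors Tgfbr1 and Tgfbr2, the co-receptors Tgfbr3 and Eng, the endothelial receptor Acvrl1 and the inhibitory SMAD gene Smad7, each taken by its symbol. The lungs came from female BALB/c mice, 9 to 10 weeks of age, that had received intravenous injections for 3 weeks. The control media (CM) group received medium kept in a dish without tumor, and the tumor conditioned media (TCM) group received medium in which pieces of 4T1 mouse breast tumors had been cultured. None of the mice of either group is described as bearing a tumor, so TCM stands for medium conditioned by tumor pieces and not for the tumor itself. Each group had 1 library, and how many mice a library held was not given in the sources used here. No difference could therefore be set against the spread between mice, and no test was possible.

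TGF-beta is secreted as a latent complex that is held in the matrix or on cell surfaces until integrins or proteases release it. The active ligand brings the type II receptor TGFBR2 together with a type I receptor, TGFBR1 in most cells or ACVRL1 (ALK1) in endothelium, and these phosphorylate SMAD proteins that enter the nucleus. Betaglycan (TGFBR3) and endoglin (ENG) present ligand to the receptors, and SMAD7 is induced by the pathway and switches it off. In lung, TGF-beta is known for its part in fibrosis, in alveolar macrophage development and in the restraint of T cells, and ENG and ACVRL1 are mutated in a hereditary disorder of blood vessels.

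Depth is counted in unique molecular identifiers (UMIs, 1 per captured RNA molecule), of which there were 31944151 for CM and 36648719 for TCM. The filters kept 7988 cells for CM and 7707 for TCM, at median depths of 2085 and 2346 UMIs, and 93 of the kept barcodes occurred in both libraries. A cell was put in a class when it held at least 2 of the 8 markers of that class and at least 2 times as many as of any other class. This gate named 5699 CM cells (71.3%) and 5824 TCM cells (75.6%). The members were not among the markers. Cells with markers of more than 1 class, 1985 in CM (24.8%) and 1739 in TCM (22.6%), were set aside, which was the only treatment of doublets. The gate is a threshold on a score, and 979 of the named CM cells and 818 of the named TCM cells lay exactly at it. In the 13 classes that each library filled with at least 50 cells, the median cell held 3 to 8 markers of its own class and at most 3 of the next. Between 2 and 6 of a class's own markers were among its top 10 genes by fold, and no class had more markers of another there. The gate used the same markers, so these counts follow largely from it and are not a separate check of the classes. Class names are "-like" throughout, since they rest on these markers alone.

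Levels are given as CP100k, the UMIs of a gene per 100000 UMIs of all genes in the class, with an exact Poisson 95% interval. Ratios of TCM over CM are on the log2 scale with a conditional binomial interval. All intervals cover counting error only. A ratio was read where a gene had at least 30 UMIs in a class over both libraries, and past 1.5-fold is used as a mark of size, not of significance. Of 117 pairs of a member and a class, 76 had enough UMIs. In 13 of these (17.1%) the ratio was past 1.5-fold, 5 higher and 8 lower in TCM, against 15.3% of all gene and class pairs. With this minimum of UMIs the members together thus stood close to the background of these libraries.

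Promoter sequences were found for 5 of the 9 members in RefSeq (GRCm38.p6), and not for Tgfb3, Tgfbr3, Acvrl1 and Smad7. The 3 shown here belong to members with different leading classes: Eng for endothelium, Tgfb1 for blood cells and Tgfb2 for smooth muscle and AT1 cells. Each is the 250 bases upstream of the gene's start, 5′ to 3′ on the strand of the gene, and capitals mark GGAA or its complement TTCC, the core letters that ETS factors bind.
Eng, chr2:32646345-32646594, plus strand: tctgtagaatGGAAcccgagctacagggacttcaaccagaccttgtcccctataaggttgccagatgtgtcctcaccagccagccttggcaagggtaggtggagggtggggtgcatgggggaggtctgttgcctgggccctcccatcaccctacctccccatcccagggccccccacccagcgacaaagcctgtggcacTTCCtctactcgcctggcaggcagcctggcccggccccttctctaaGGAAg
Tgfb1, chr7:25686752-25687001, plus strand: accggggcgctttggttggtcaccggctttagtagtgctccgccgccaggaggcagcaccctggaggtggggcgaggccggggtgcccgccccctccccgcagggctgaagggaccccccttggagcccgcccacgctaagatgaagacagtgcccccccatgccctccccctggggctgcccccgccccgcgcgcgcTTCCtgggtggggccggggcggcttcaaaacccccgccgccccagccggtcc
Tgfb2, chr1:186705990-186706239, minus strand: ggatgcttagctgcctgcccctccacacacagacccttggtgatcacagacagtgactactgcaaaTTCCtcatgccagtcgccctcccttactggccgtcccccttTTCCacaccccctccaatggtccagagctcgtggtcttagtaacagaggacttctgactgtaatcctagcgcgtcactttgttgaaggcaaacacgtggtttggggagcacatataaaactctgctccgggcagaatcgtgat
The Eng window held 3 matches, and 54.7% of 32851 promoters of the same length held at least as many. The Tgfb1 window held 1, which 93.4% of promoters reached, and the Tgfb2 window held 2, which 76.8% reached. The Tgfb1 window was rich in G and C (75.2%), against a median of 52.4% over all promoters, 62.4% for Eng and 53.6% for Tgfb2. Such matches describe letters and not binding sites.

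The genes are protein-coding and lie apart in the genome (GRCm38). Tgfb1 spans chromosome 7 from 25687002 to 25705077, Tgfb2 chromosome 1 from 186622792 to 186705989 and Tgfb3 chromosome 12 from 86056745 to 86079041. Tgfbr1 lies on chromosome 4 from 47353222 to 47414931, Tgfbr2 on chromosome 9 from 116084293 to 116175360 and Tgfbr3 on chromosome 5 from 107106570 to 107289629. Eng lies on chromosome 2 from 32646595 to 32682669, Acvrl1 on chromosome 15 from 101128522 to 101145336 and Smad7 on chromosome 18 from 75367529 to 75395935.

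Tgfb1, the ligand most often linked to immune regulation, was a transcript of blood cells and endothelium. Its level was highest in monocyte-like cells, with 215 UMIs in 76 of 97 CM cells (57.4 CP100k, 50 to 65.6) and 258 UMIs in 103 of 143 TCM cells (38.1, 33.6 to 43.0). Alveolar macrophage-like cells followed with 35.2 in CM and 36.8 in TCM. B-like cells held 28.9 and 27.6, interstitial macrophage-like cells 30.7 and 23.9, NK-like cells 25.5 and 21.5 and endothelial-like cells 20.1 and 20.4. No pair of neighbours in this order was separated by its intervals in both libraries. Neutrophil-like cells (15.7 and 8.64) and T-like cells (9.72 and 10.5) came next. Below T-like cells there was a gap in both libraries, and the AT1-, AT2-, pericyte-, fibroblast- and smooth muscle-like classes lay between 2.46 and 6.01.

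In monocyte-like cells the Tgfb1 level was lower in TCM (log2 ratio −0.59, −0.86 to −0.32). Tgfb1 was 1 of only 2 members with enough UMIs there, and the only 1 past 1.5-fold, where 25.3% of all genes tested in the class were. The make-up of the class differed: cells with classical markers numbered 41 in CM and 112 in TCM, and cells with non-classical markers 42 and 15. Within the classical cells the Tgfb1 level was 55.2 CP100k in CM (45.4 to 66.6) and 34.6 in TCM (29.8 to 39.8), so the difference was also present there. Within the few non-classical cells the values were 47.4 (35.4 to 62.1) and 43.5 (24.3 to 71.7), which overlap. After thinning each cell to 1000 UMIs, 50% of the CM and 30.2% of the TCM monocyte-like cells held a Tgfb1 UMI, against 78.4% and 72.0% without thinning. Class names taken from clusters gave a smaller difference, −0.36.

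Neutrophil-like cells were few in CM (224, median 1259 UMIs) and many in TCM (1341, median 1558 UMIs). Tgfb1 gave 50 UMIs in 42 cells in CM and 195 UMIs in 162 cells in TCM, so that its level per 100000 UMIs was lower in TCM (−0.86, −1.32 to −0.38). The ratio stayed past 1.5-fold in all 9 alternative settings, between −1.22 and −0.71. Free RNA, estimated from droplets without cells, would account for 3.79 of the CM UMIs and 62.2 of the TCM UMIs. Of the 6 members with enough UMIs in this class, 3 were past 1.5-fold, beside 41.4% of all genes. The others past it were Tgfbr1 (11 and 49 UMIs, −0.67, −1.63 to 0.42), whose sign turned with a stricter gate (0.03) and with clusters (0.22), and Eng, which is described with the co-receptors.

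AT1-like cells, the flat cells of the alveolar surface, gave 50 Tgfb1 UMIs in CM and 25 in TCM (6.01 and 3.25 CP100k, −0.89, −1.64 to −0.17). Of these, 4.55 and 10.8 UMIs were expected from free RNA, and with clusters the ratio was only −0.31. In this class 2 of 6 members were past 1.5-fold, both lower in TCM, beside 11.8% of all genes. In AT2-like cells, the surfactant-making cells, Tgfb1 was at 5.13 and 3.60 (−0.51, −1.09 to 0.06), and 0 of 6 members were past 1.5-fold, beside 15.7% of all genes. The median AT2-like cell held 1305 UMIs in CM but 4707 in TCM.

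Counted as shares of the Tgfb1 UMIs in all gated cells (2643 in CM and 2702 in TCM), endothelial-like cells were the first source in both libraries, with 35.7% and 42.0%. Alveolar macrophage-like cells gave 14.5% and 16.8%, and monocyte-like cells 8.13% and 9.55%. B-like cells gave 12.5% in CM and 6.18% in TCM, at nearly equal levels per UMI, with 584 and 301 cells. The neutrophil share went from 1.89% (1.41 to 2.49%) to 7.22% (6.27 to 8.26%), a higher share at a lower level per UMI of the class. These shares describe the cells recovered, and capture of each class and its size in the tissue cannot be told apart.

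**Figure D1:**
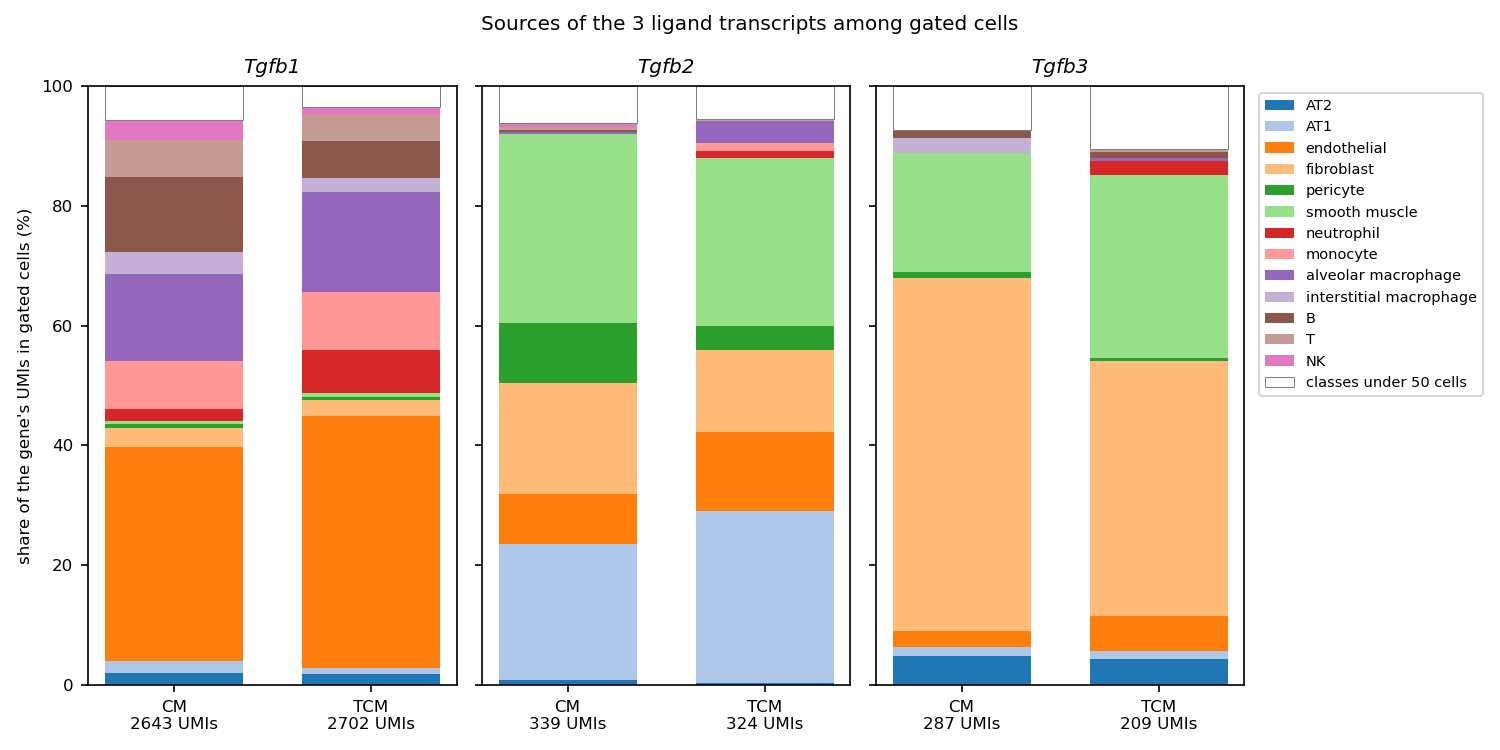
Each bar is 1 library, and its segments show the share (%) of a ligand's UMIs in gated cells that came from each class, with the number of UMIs under the bar. Endothelial-like cells gave the widest segment for Tgfb1 (35.7% in CM, 42.0% in TCM), smooth muscle-, AT1- and fibroblast-like cells most of Tgfb2, and fibroblast-like cells the widest for Tgfb3 (58.9% and 42.6%).

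Tgfb2, a ligand needed for heart and lung development, was almost absent from blood cells. It was highest in smooth muscle-like cells, with 107 UMIs in CM (16.4 CP100k, 13.5 to 19.9) and 91 in TCM (14.5, 11.7 to 17.8). AT1-like cells gave 77 and 93 UMIs (9.26 and 12.1 CP100k, log2 ratio 0.38, −0.07 to 0.84). The intervals of these classes overlapped in TCM. AT2-like cells held only 3 and 1 UMIs, far below AT1-like cells in both libraries. Pericyte-like cells, which wrap capillaries, gave 34 UMIs in CM and 13 in TCM (9.45 and 4.86, −0.96, with an interval from −2.01 to just under 0). That ratio shrank to −0.21 after thinning. In pericyte-like cells 2 of 6 members were past 1.5-fold, 1 in each direction, beside 15.4% of all genes. Fibroblast-like cells lay lower at 2.12 and 1.79, and endothelial-like cells lower still at 0.60 and 0.77. Alveolar macrophage-like cells had 1 UMI in CM and 12 UMIs in 8 TCM cells, too few for a ratio to be read. Smooth muscle-like cells gave 31.6% and 28.1% of the Tgfb2 UMIs and AT1-like cells 22.7% and 28.7%.

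Tgfb3, a ligand of mesenchyme, was the most stromal of the 3. Smooth muscle-like cells had the highest level, with 57 UMIs in CM (8.75 CP100k, 6.63 to 11.3) and 64 in TCM (10.2, 7.86 to 13), and stood apart from the next class in both libraries. Fibroblast-like cells gave 169 UMIs in 109 CM cells (5.69, 4.86 to 6.61) and 89 UMIs in 58 TCM cells (3.62, 2.90 to 4.45). This was the only 1 of 9 members past 1.5-fold in fibroblast-like cells (−0.65, −1.04 to −0.27), beside 8.81% of all genes. Among fibroblasts, cells with adventitial markers held far more Tgfb3 (12.4 in CM, 10.4 in TCM) than cells with alveolar markers (2.19 and 1.06). The ratio was −1.05 (−2.07 to −0.11) in the alveolar and −0.26 (−1.15 to 0.60) in the adventitial cells. These rested on 33 and 14 UMIs in the alveolar and 31 and 20 in the adventitial cells. Most of the Tgfb3 UMIs of fibroblast-like cells thus lay in cells that were in neither subclass. Over all fibroblast-like cells the ratio kept its sign in 8 of 9 alternative settings and stayed past 1.5-fold in 7. The exception in sign was thinning to 1000 UMIs, which uses fewer cells and UMIs, with a ratio of 0.03. All other classes lay at or under 2.24 CP100k. Interstitial macrophage-like cells had 7 UMIs in 4 CM cells and 0 in TCM (interval 0 to 1.49 CP100k). Mesothelial-like cells, which cover the lung, were too few to compare (13 and 29 cells) but held 20 and 21 Tgfb3 UMIs (15.2 and 15 CP100k) and 19 and 18 Tgfb2 UMIs (14.4 and 12.9).

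**Figure D2:**
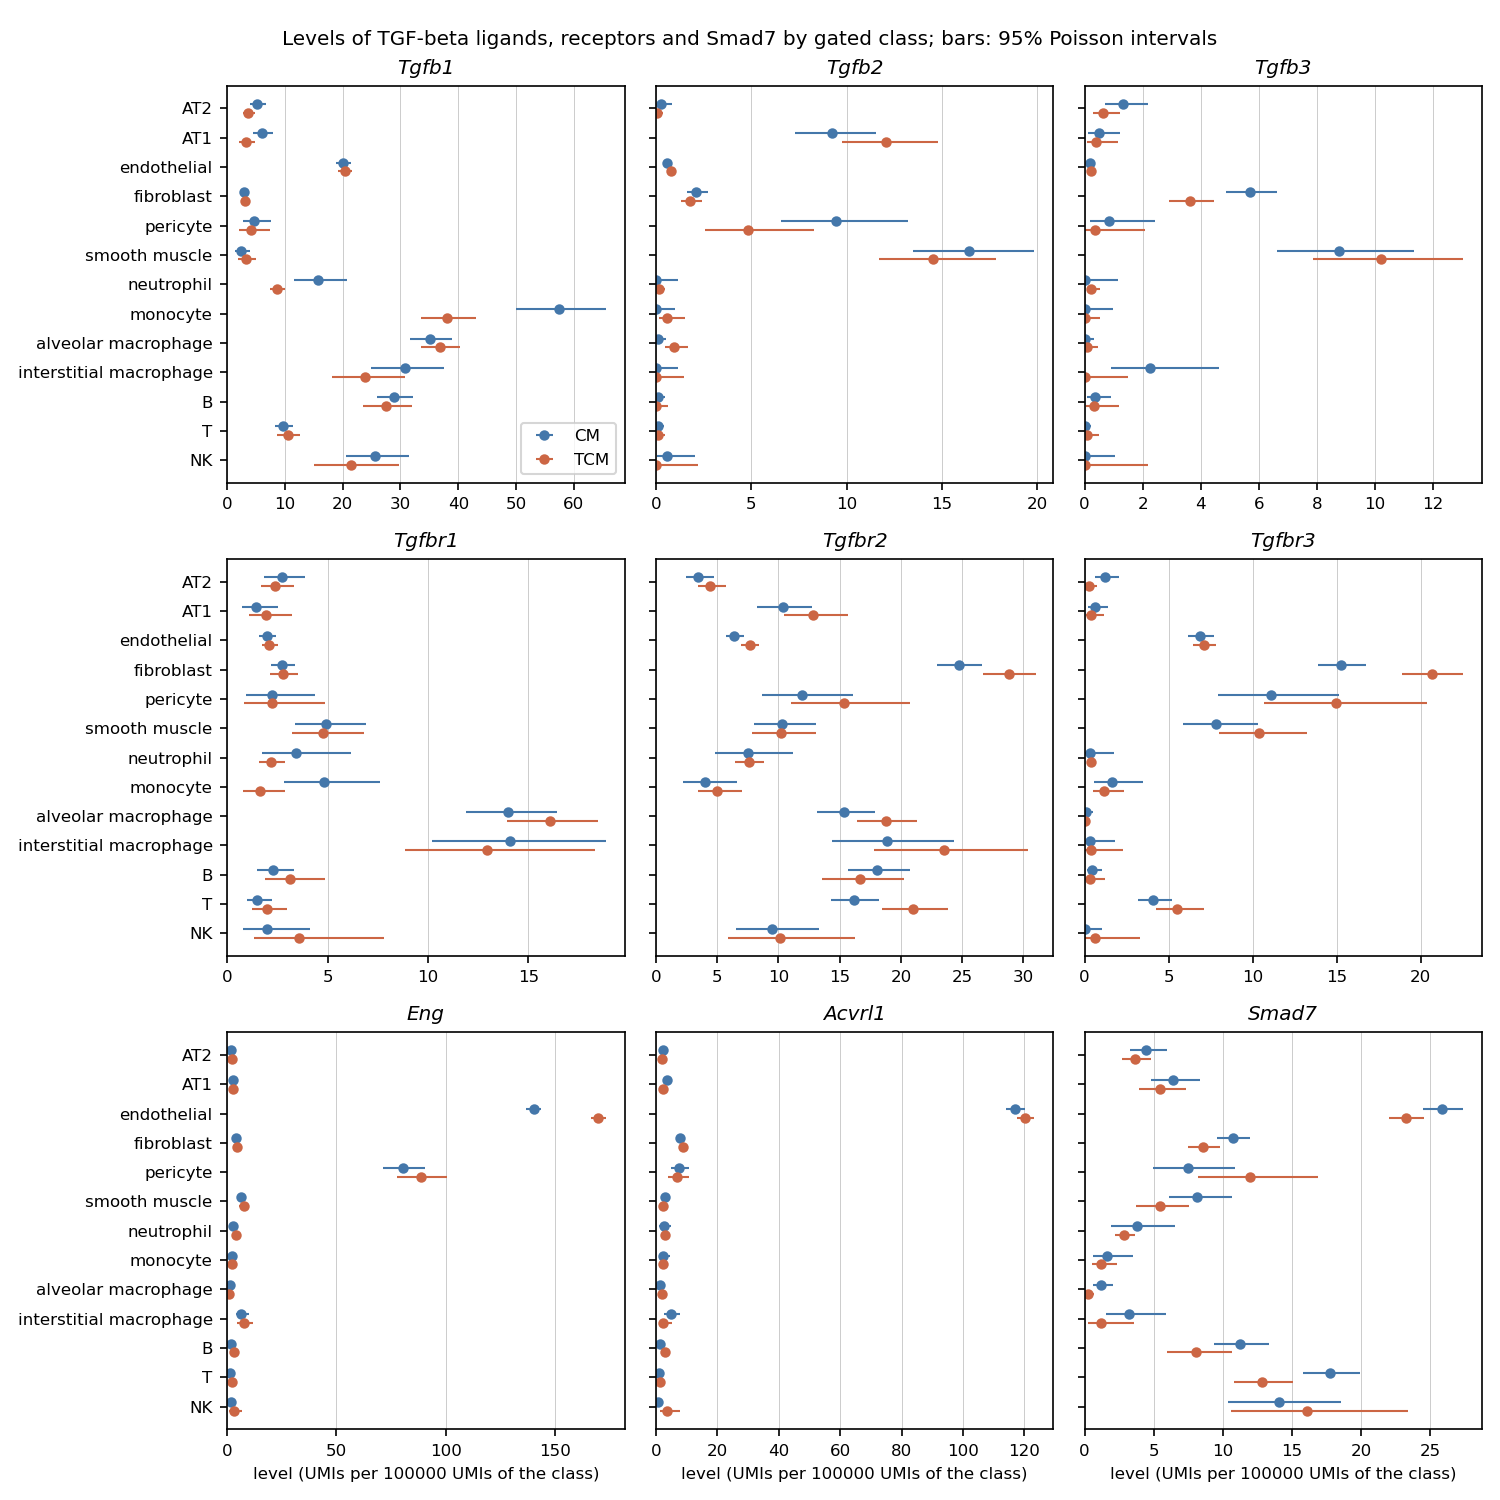
Points show the level (CP100k, linear axis from 0, with a scale of its own for each gene) of each member in 13 classes, CM in blue and TCM in orange, with 95% Poisson intervals as bars. Tgfb1 was spread over blood and endothelial classes, Tgfb2 over stromal classes and AT1, Tgfb3 over stromal classes, Tgfbr1 peaked in macrophages, and Eng and Acvrl1 in endothelial-like cells (140 and 117 CP100k in CM).

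Tgfbr1 encodes the type I receptor kinase that most cells use for TGF-beta. It was highest in macrophages: alveolar macrophage-like cells had 153 UMIs in CM (14.0 CP100k, 11.9 to 16.4) and 199 in TCM (16.1, 13.9 to 18.5), and interstitial macrophage-like cells 44 and 32 UMIs (14.1 and 13). These classes did not differ beyond their intervals, and both stood apart from smooth muscle-like cells, the next class (4.91 and 4.79). All other classes lay between 1.44 and 4.80. Monocyte-like cells gave 18 UMIs in CM and 11 in TCM (4.80 and 1.62), fewer than the 30 set for reading a ratio. None of the macrophage ratios of any member was past 1.5-fold, with 0 of 4 in the alveolar class (14.3% of all genes) and 0 of 4 in the interstitial class (21.3%).

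Tgfbr2, the type II receptor that binds ligand first, was the most evenly spread member. Every compared class held at least 15 of its UMIs in each library. Fibroblast-like cells led with 735 UMIs in CM (24.7 CP100k, 23.0 to 26.6) and 709 in TCM (28.8, 26.7 to 31.0). Interstitial macrophage- (18.9 and 23.5), T- (16.1 and 21.0), B- (18.1 and 16.7) and alveolar macrophage-like cells (15.4 and 18.8) followed, without a gap between neighbours that held in both libraries. The lowest levels were in AT2- (3.45 and 4.44) and monocyte-like cells (4.0 and 5.02). AT1-like cells (10.3 and 12.9) were thus above AT2-like cells for this receptor as for Tgfb2.

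TCM levels of Tgfbr2 were above CM levels in 11 of 13 classes, each by less than 1.5-fold. How many other genes had signs as uneven over the classes of these 2 libraries was not counted. The interval left out 0 in T- (0.38, 0.12 to 0.64), endothelial- (0.26, 0.05 to 0.48) and fibroblast-like cells (0.22, 0.07 to 0.37). In endothelial-like cells the UMIs were 300 and 428. The fibroblast ratio was −0.0041 after thinning, and the T and endothelial ratios kept their sign in all 9 settings (0.16 to 0.58 and 0.10 to 0.35).

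Tgfbr3, which encodes betaglycan, a co-receptor that presents TGF-beta2 in particular, had a stromal and vascular pattern. Fibroblast-like cells gave 453 UMIs in 307 of 819 CM cells (15.2 CP100k, 13.9 to 16.7) and 508 UMIs in 273 of 575 TCM cells (20.6, 18.9 to 22.5). This ratio (0.44, 0.25 to 0.62) was between 0.39 and 0.61 in the alternative settings. Cells with alveolar fibroblast markers showed it too (17.6 and 24.3, 0.46, 0.22 to 0.70). Pericyte- (11.1 and 14.9) and smooth muscle-like cells (7.83 and 10.4) came next, with ratios of 0.43 (−0.24 to 1.10) and 0.41 (−0.15 to 0.96). Endothelial-like cells held 6.89 and 7.10. Within endothelium, aerocyte-like cells, the large capillary cells of gas exchange, had 13.1 and 17.2, above general capillary-like cells with 5.63 and 4.96. T-like cells were the only blood class above 2 CP100k (4.08 and 5.52). Within them CD4 cells (7.0 and 10.1) were higher than CD8 cells (1.96 and 2.48) in both libraries.

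Eng, which encodes endoglin, the co-receptor of endothelium, was the gene with the clearest pattern. Endothelial-like cells gave 6578 UMIs in 1357 of 1746 CM cells (140 CP100k, 137 to 144) and 9468 UMIs in 1428 of 1665 TCM cells (170, 166 to 173). They held 91.6% of the Eng UMIs of gated cells in CM and 93.6% in TCM. Pericyte-like cells came second, with 290 UMIs in CM (80.6, 71.6 to 90.4) and 237 in TCM (88.5, 77.6 to 101). Every other class lay at or under 7.70. The 3 levels (endothelial, pericyte, all others) were apart in both libraries.

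Thinned to 1000 UMIs, 70.9% of CM and 77.1% of TCM endothelial-like cells held an Eng UMI, against 46.7% and 57.8% of pericyte-like cells. In T-like cells, which should lack the gene, the share was 1.76% and 2.09%. Without thinning these shares were 77.7% and 85.8%, 67.2% and 75.5%, and 3.5% and 5.43%, at median depths of 1861.5 and 2539 UMIs in endothelial-like, 2095 and 1955 in pericyte-like and 2464 and 2434 in T-like cells. Thinning left out 505 CM and 332 TCM endothelial-like, 42 and 30 pericyte-like and 118 and 78 T-like cells. The pericyte share was thus far above the T-like background. Pericyte- and endothelial-like cells touch in the tissue, and 105 CM and 73 TCM cells that held both marker sets had been set aside. Whether endothelial RNA remained in the named pericyte-like cells was not tested for Eng, and Acvrl1 in the same cells was at 7.50 and 6.72 CP100k.

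The Eng level of endothelial-like cells was higher in TCM by 0.28 (0.23 to 0.32), or 1.21-fold. The interval is narrow because the counts are large, and it does not cover differences between mice. The ratio lay between 0.21 and 0.33 in the 9 alternative settings, was 0.29 (0.24 to 0.35) in general capillary-like and 0.23 (0.05 to 0.41) in aerocyte-like cells, and it was the most precise of the 8 members with enough UMIs in this class. The only larger ratio was that of Tgfb2 (0.37, −0.35 to 1.11, on 28 and 43 UMIs), whose interval held 0. None of these 8 was past 1.5-fold, beside 7.81% of all genes. The few large vessel-like cells (22 and 10) held 81 and 41 Eng UMIs, at 141 and 94.7 CP100k.

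In neutrophil-, B- and T-like cells, Eng ratios were past 1.5-fold (0.70, 0.91 and 0.81), but every interval held 0. The sums were 8 and 92 UMIs in neutrophil-like cells, 19 and 19 in B-like cells and 22 and 26 in T-like cells. Free RNA was expected to give 8.02 and 97.7, 20.9 and 21.9, and 22.5 and 33.5 UMIs in the same cells, so these sums were at the level of free RNA and are not read as expression. In T-like cells Eng was the only 1 of 7 members past 1.5-fold (11.7% of all genes), and after thinning its ratio was −0.09. In B-like cells Eng and Acvrl1 were the 2 of 6 past it (15.2% of all genes). In NK-like cells 0 of 3 members were (18.7%).

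Acvrl1 encodes ALK1, the type I receptor that endothelium uses for BMP9 and BMP10 and, with TGFBR2, for TGF-beta. It gave 5482 UMIs in endothelial-like cells in CM (117 CP100k, 114 to 120) and 6708 in TCM (120, 117 to 123), 92.7% and 93.5% of its UMIs in gated cells. The log2 ratio was 0.04 (−0.01 to 0.09), an interval that lay wholly below that of Eng in the same cells. Fibroblast- (7.91 and 8.90) and pericyte-like cells (7.50 and 6.72) came next, and all other classes lay at or under 4.80. In fibroblast-like cells 235 and 219 UMIs were seen where free RNA was expected to give 25.8 and 32.8. The ratio in B-like cells, 1.19 (0.08 to 2.32), rested on 14 and 17 UMIs, with 18.4 and 17.2 expected from free RNA, and was −0.06 with clusters. The ratio in AT1-like cells (−0.60, −1.50 to 0.27) rested on 31 and 19 UMIs, with 8.47 and 13.2 expected from free RNA.

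Eng and Acvrl1 differed in where they peaked within endothelium. Acvrl1 was higher in aerocyte-like cells (163 CP100k in CM, 150 to 177, and 168 in TCM, 156 to 180) than in general capillary-like cells (114 and 114). Eng had the opposite order, with 116 and 137 in aerocyte-like and 147 and 180 in general capillary-like cells. Intervals were apart in both libraries for both genes. Large vessel-like cells had the lowest Acvrl1 level (66.1 and 71.6). Depth per cell was 1475 and 2463 UMIs (median) in aerocyte-like and 1878.5 and 2356 in general capillary-like cells. The estimated share of free RNA was 11.9% and 42.1% in aerocyte-like cells and 5.95% and 12.5% in general capillary-like cells, and its part in these levels was not tested.

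Smad7, the inhibitory SMAD that blocks the type I receptor, was highest in endothelial-like cells. They gave 1214 UMIs in CM (25.9 CP100k, 24.5 to 27.4) and 1297 in TCM (23.3, 22.0 to 24.6), and stood apart from the next class in both libraries. They held 53.0% and 64.6% of its UMIs in gated cells. Large vessel-like cells had 45.2 (29.6 to 66.3) and 46.2 (28.2 to 71.4), above general capillary-like cells with 26.4 and 23.5. T- (17.8 and 12.8) and NK-like cells (14.0 and 16.1) followed and did not differ from each other beyond their intervals. Smad7 was lowest in alveolar macrophage-like cells, with 13 UMIs in CM and 3 in TCM, where free RNA was expected to give 2.73 and 7.16.

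Smad7 levels were lower in TCM in 11 of 13 classes. In 3 of these 11, the monocyte- and both macrophage-like classes, the UMIs were too few for a ratio to be read. The classes share the same 2 libraries, and how many other genes had signs as uneven was not counted. T-like cells gave 296 UMIs in 224 of 629 CM cells and 144 UMIs in 117 of 460 TCM cells (−0.47, −0.77 to −0.18). The difference was larger in CD8 cells (16.3 and 9.92, −0.71, −1.33 to −0.13) than in CD4 cells (−0.33, −0.96 to 0.27), with overlapping intervals. The T ratio kept its sign in all 9 settings, from −0.81 to −0.26. The endothelial (−0.15, −0.27 to −0.04) and fibroblast ratios (−0.32, −0.58 to −0.07) were smaller and also kept their sign, from −0.33 to −0.13 and from −0.38 to −0.19. In smooth muscle-like cells Smad7 was the only 1 of 9 members past 1.5-fold (−0.59, −1.25 to 0.06), beside 15.4% of all genes. The opposite sign in pericyte-like cells (27 and 32 UMIs, 0.67, −0.11 to 1.47) turned to −0.04 with clusters.

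**Figure D3:**
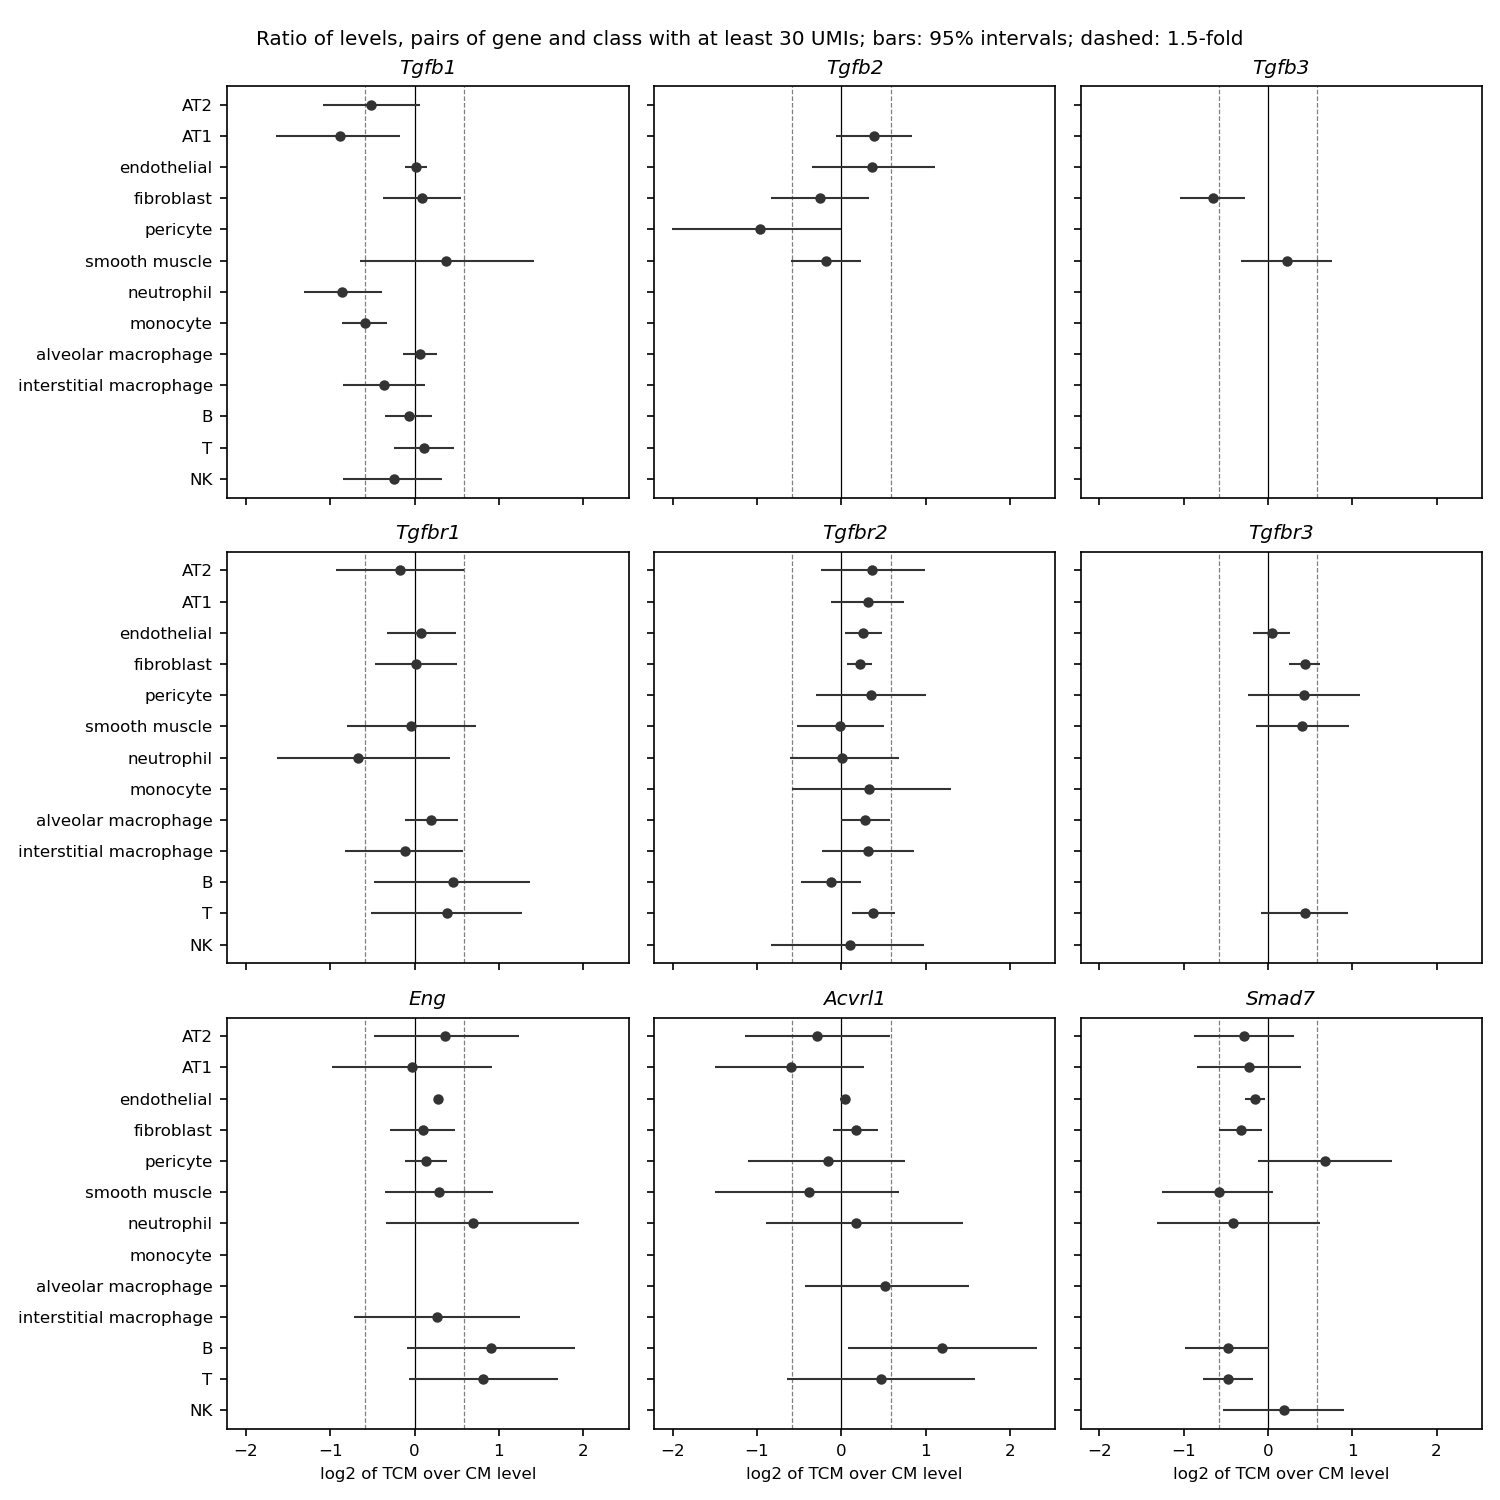
Points show the log2 ratio of TCM over CM levels for 76 pairs of a member and a class with at least 30 UMIs, bars are 95% conditional binomial intervals, and dashed lines mark 1.5-fold. Of the 13 points past a dashed line, 5 lie on the TCM side and 8 on the CM side, and the narrowest interval is that of Eng in endothelial-like cells (0.23 to 0.32).

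The members' levels over the 13 classes were also set side by side, as log2(CP100k + 1) averaged over both libraries. The points share libraries and depth, so these correlations are descriptions. Eng and Acvrl1 were the most alike pair (r = 0.85), and Tgfb1 and Tgfb2 the least (r = −0.69). Tgfb1 also ran against Tgfb3 (r = −0.67), and Tgfbr1 against Smad7 (r = −0.68). The members were then set against other genes with at least 200 UMIs. The gate markers were left out of this ranking, so a marker could not be named as nearest. The pattern most like that of Tgfb1 was that of Nrros (r = 0.94), whose protein tethers latent TGF-beta1 on myeloid cells, followed by Casp8 (0.92) and Fam111a (0.91). For Tgfb2 these were 1110046J04Rik (0.97), Samd4 (0.95) and Hspg2 (0.93), and for Tgfb3 Lynx1 (0.97), Prrx1 (0.96) and Medag (0.96). Tgfbr1 was most like Dctpp1 (0.95), Mrc1 (0.95), the macrophage mannose receptor, and Tbxas1 (0.92). Tgfbr2 had no close match, with Lmnb2 (0.77), Nmrk1 (0.76) and Prelid2 (0.75) nearest. Tgfbr3 was nearest to Fam92a (0.91), Hotairm1 (0.90) and Hoxa7 (0.90). Eng was nearest to Aard (0.97), Foxf1 (0.95), a transcription factor of lung mesoderm, and Gja4 (0.95). Acvrl1 was nearest to Pcdh12 (0.97), an endothelial protocadherin, Hyal2 (0.97) and Srgap1 (0.96), and Smad7 to Ablim1 (0.94), Orc5 (0.92) and Ggps1 (0.90).

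The rest of the pathway was followed with a list of 71 measured genes for latency, other receptors, BMP and activin ligands, signalling and targets. The counts are of ratios past 1.5-fold, whether or not their interval held 0, and the genes named are among those whose interval left out 0. In endothelial-like cells 53 of the 71 had enough UMIs, and 2 were higher and 5 lower in TCM, where 7.81% of all genes were past 1.5-fold. The higher were Tgfbi (13 and 36 UMIs, 1.22), a matrix protein named for its induction by TGF-beta, and Inhbb (120 and 263 UMIs, 0.88), an activin subunit. The 4 lower ones whose interval left out 0 were Thbs1 (155 and 79 UMIs, −1.22), an activator of latent TGF-beta, Ccn2 (159 and 106, −0.83), a common target gene, and the ligands Gdf15 (77 and 55, −0.74) and Bmp4 (85 and 61, −0.73). Of the 15 genes listed as targets with enough UMIs, 1 was thus higher, Tgfbi, and 1 lower, Ccn2. The Tgfbi level was low, at 0.28 CP100k in CM and 0.65 in TCM. The estimated share of free RNA in endothelial-like cells was 6.29% in CM and 13.2% in TCM, and its part in the Tgfbi ratio was not tested.

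In fibroblast-like cells 3 of 53 were higher and 4 lower, beside 8.81% of all genes. The intervals of 2 of the higher and 2 of the lower left out 0, among them the ligand Bmp2 (10 and 33 UMIs, 1.99), the repressor Tgif1 (62 and 29, −0.82) and the transcription factor Atoh8 (78 and 38, −0.77). In alveolar macrophage-like cells 6 of 27 were higher and 0 lower, beside 14.3% of all genes, in a class where the median over all genes was 0.10 and over the list 0.20. Of these, 5 had an interval that left out 0, led by fibronectin, Fn1 (64 and 148 UMIs, 1.03), Id1 (20 and 45, 0.99), the type II receptor Bmpr2 (46 and 89, 0.77) and Tsc22d1 (38 and 68, 0.66). In interstitial macrophage-like cells 2 of 14 were higher and 5 lower, beside 21.3% of all genes. The intervals of 1 higher and 4 lower genes left out 0, among them Bmp2 at 3 and 27 UMIs (3.51, 1.81 to 5.88), Gdf15 at 67 and 3 (−4.14, −6.45 to −2.53), Bhlhe40 at 28 and 5 (−2.14) and Tgif1 at 37 and 15 (−0.96). That class held only 76 CM and 61 TCM cells.

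In neutrophil-like cells 4 of 23 were higher and 8 lower, beside 41.4% of all genes, in a class where the median over all genes was −0.15 and over the list −0.45. The intervals of 1 higher and 4 lower genes left out 0. Id1 was higher (26 and 444 UMIs, 1.27), and Thbs1 (180 and 345, −1.89), Tgif1 (54 and 106, −1.85), Inhba (25 and 52, −1.77), an activin subunit, and the phosphatase Ppm1a (15 and 52, −1.03) were lower. In AT1-like cells 3 of 35 were higher and 3 lower, beside 11.8% of all genes. The interval left out 0 for 2 of the higher and 0 of the lower, with the ubiquitin ligase Nedd4l (70 and 107, 0.72) and Tsc22d3 (248 and 346, 0.59) as the 2. In AT2-like cells 2 of 38 were higher and 6 lower, beside 15.7% of all genes, and the intervals of 2 and 5 of them left out 0. Nedd4l (54 and 141, 0.98) and the ubiquitin ligase Smurf2 (27 and 58, 0.70) were higher, and the latent TGF-beta binding protein Ltbp4 (23 and 7, −2.12), Fn1 (26 and 16, −1.10), Id3 (55 and 42, −0.79) and Tsc22d3 (138 and 115, −0.67) lower. Tsc22d3 thus had opposite signs in the alveolar epithelial classes. Levels in AT2-like cells were low for Ltbp4 (2.15 and 0.49 CP100k) and Fn1 (2.43 and 1.13). The estimated share of free RNA was 5.95% in CM and 10.5% in TCM in AT2-like cells, and 8.47% and 15.3% in neutrophil-like cells. Its part in the ratios of these classes was not tested.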

How the data were processed

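Single-cell libraries were made by the authors from whole mouse lung with a 5′ kit of 10x Genomics, 1 library for CM and 1 for TCM, and sequenced on a NovaSeq instrument. Reads were mapped with Cell Ranger (version 4 per the file headers) to mm10 (GRCm38.p6). Deposited values are raw UMI counts per gene and barcode, without normalization, for cells and empty droplets. The submitters' processing notes also name Seurat. An added CD90.1 sequence had 1 UMI in CM cells and 0 in TCM cells and was not used. Such 5′ counts do not allow levels to be compared between genes.

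Droplets with at least 500 UMIs, at least 200 genes and at most 10% mitochondrial UMIs were kept, which are the thresholds of the study. Cells were gated with 25 lists of 8 markers, and 6 subclasses were compared. UMIs were summed by class and library. No p-value was computed. Where a sum was 0, 3 counts stood in for it, and no ratio of that kind is printed. Free RNA was profiled in droplets of at most 50 UMIs, and its amount per cell (median over classes, 125 UMIs in CM and 253 in TCM) came from 5 haemoglobin and club cell genes. Expected free UMIs are this amount, times cells, times the gene's share of the profile. Values are not corrected for it unless stated. Fits of ratios were tested on simulated data.

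All 9 members were named in every compared class. Pathway genes were named by size, up to 4 in each direction in 7 classes, and Thbs1 also in monocyte-like cells. Similar genes were named by the 3 highest Pearson r, with the gate markers left out. Of the pathway genes so named, 2 are not reported here. The members and lists were chosen with earlier results of these data known. Alternatives were a stricter gate, the leading class alone, Leiden clusters (leidenalg 0.10.2), other minimums, free RNA subtraction, means over cells, thinning and centring on the class median. Genes were located in GENCODE vM21. Work was done in Python 3.11.15 with numpy 2.4.6, scipy 1.17.1, pandas 2.3.3, scikit-learn 1.9.0 and matplotlib 3.10.9.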

Additional observations from a re-analysis of the deposited data

Results flagged for a closer look

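Cells with markers of more than 1 class had been left out of the comparisons, and 3 members had a TCM over CM ratio in them whose counting interval lay above 0. Eng had 3752 UMIs in CM and 4183 in TCM (log2 ratio 0.20, 0.14 to 0.27), Tgfbr3 517 and 616 (0.30, 0.13 to 0.47) and Tgfbr2 932 and 1032 (0.19, 0.06 to 0.32). Tgfb3 went the other way (122 and 89 UMIs, −0.41, −0.82 to −0.0026). The 3 that were higher had the same sign as in the named endothelial- or fibroblast-like cells. The commonest mixtures were AT1 with endothelial markers, in 312 CM and 170 TCM cells, and AT2 with endothelial markers, in 204 and 168 cells, so the make-up of these cells differed between the libraries and its part in the ratios was not tested.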

How the results depend on the processing

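Across 9 alternative settings the 76 ratios gave 678 values, of which 630 moved by less than the counting interval, 42 moved further and 6 reversed a ratio past 1.5-fold. In all, 100 values changed sign, 74 of them within the interval. The 6 reversed were Tgfb3 in fibroblast-like cells (0.035) and Eng in T-like cells (−0.095) after thinning, Tgfbr1 in neutrophil-like cells with the stricter gate (0.028) and with clusters (0.22), and, with clusters, Acvrl1 in B-like cells (−0.064) and Smad7 in pericyte-like cells (−0.044). Thinning to 1000 UMIs, which uses fewer cells and UMIs, moved 20 of the ratios, 10 of them with a change of sign. The 13 of 76 pairs past 1.5-fold (15.3% of all gene and class pairs) became 4 of 43 with at least 100 UMIs per pair (6.69%). Means over cells gave 20 of 76, and the share of all pairs was not computed for that setting. Without a minimum there were 28 of 117, beside 9.82% of all pairs. That share counts genes without UMIs in a class, which cannot pass 1.5-fold, so it is not a like background. The other settings gave 9 to 14 pairs, out of 38 to 94 with enough UMIs, beside 14.9% to 18.3% of all pairs. The neutrophil share of Tgfb1 UMIs in CM was 2.53% with the stricter gate, 3.72% after thinning and 1.36% with clusters. In TCM it was 8.83% with the stricter gate, 6.25% by the leading class alone, 5.46% with free RNA subtracted, 14.7% after thinning and 5.23% with clusters. Apart from the smaller numbers of cells and UMIs that thinning and the minimums use by construction, the cause was not tested. No paired analysis was possible because each group held 1 library, and for the same reason no replicate could be left out. Sums under 30 UMIs limited what could be read for 41 of the 117 pairs.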

Other observations

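The genes that hold, release or oppose TGF-beta also had class-bound levels. Nrros was highest in monocyte-like cells in CM (23.8 CP100k, 19.9 in TCM) and in interstitial macrophage-like cells in TCM (23.9 CP100k, 16.9 in CM). Itgb6, the epithelial integrin chain that frees latent TGF-beta, was highest in AT1-like cells (187 and 175 UMIs, 22.5 and 22.7 CP100k), with 6 and 11 UMIs in AT2-like cells. Ltbp4, which anchors latent TGF-beta in matrix, was highest in fibroblast-like cells (69.8 and 79.8) and Ltbp2 in pericyte-like cells (49.7 and 63.5). Bambi, a decoy receptor, was also highest in pericyte-like cells (154 and 91 UMIs, 42.8 and 34.0). Bmpr2, which pairs with ALK1, was highest in endothelial-like cells (4363 and 6069 UMIs, 93.1 and 109), as were the inhibitory SMAD gene Smad6 (34.4 and 28.4) and the ligand Bmp6 (19.2 and 20.7). Transcripts of the ALK1 ligands Gdf2 and Bmp10 were at 0 UMIs in all 13 compared classes of both libraries.

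In classes too small to compare, Tgfb1 was at 52.3 CP100k in 22 CM and 30.2 in 14 TCM cells with ILC2 markers, and at 33.2 in 27 CM and 31.0 in 8 TCM plasmacytoid dendritic-like cells. The intervals of CM and TCM overlapped in both.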
